A study of Mus musculus with 15 samples.

Results

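9 genes that macrophages hardly transcribe at rest, and that carried reads once the cells had been given heme-albumin, are described here: Six4, Arnt2, Ptprn, Rnf183, Hunk, Rassf6, Ceacam10, Hsd11b1 and Ptpn14. They were chosen because earlier results of these data showed them near absent in controls and present with heme-albumin, so their levels against the controls are a description and carry no test. They are 9 of 25700 genes in the count table, and all 9 were among the 11883 with enough counts to be tested, some of them only through their heme-albumin libraries. The rule set no numerical limit. Control means ran from 0 counts in all libraries (Six4, Ptpn14) to 0.518 ± 0.109 CPM (counts scaled to the library, SD, n = 3; Rnf183), and 3 of the 9, Ptprn, Rnf183 and Ceacam10, lay above 0.2 CPM, so these 3 were low in controls and not silent.

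The libraries were stranded TruSeq RNA libraries of mouse bone marrow derived macrophages, 15 in 5 groups of 3. Marrow from femurs and tibias of mice aged 8 to 10 weeks was grown for 7 days with M-CSF at 10 ng/ml, in every group. The cells were then given heme-albumin at 200 µM or at 400 µM, 10 ng/ml of IL-4 (termed M2) or 10 ng/ml of IFN-γ (termed M1), or were left as controls, for which the labels list no treatment and no albumin vehicle. Heme-albumin is hemin dissolved in alkali and carried on human serum albumin, and the labels use it to make cells resembling macrophages that have eaten red cells. The sources used here do not give strain, sex or the time under treatment. The treatment tag of replicates 2 and 3 at the higher dose differs slightly from the 400 µM of their titles.

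A macrophage that takes up red cells or heme breaks the heme down with heme oxygenase 1 (Hmox1) and stores or exports the iron. Heme also releases antioxidant genes from the repressor BACH1, which leaves their antioxidant response elements to the activator NRF2. Six4 and Arnt2 are transcription factors, Hunk, Rassf6 and Ptpn14 act in kinase and growth signalling, Rnf183, Ptprn and Hsd11b1 are membrane proteins of the secretory pathway, and Ceacam10 belongs to a family of adhesion and secreted glycoproteins.

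Levels are in CPM, counts per 1e6 of the library total scaled by TMM, with SD over n = 3 libraries. Total counts ran from 8427352 to 28587416, so 3 counts correspond to 0.0469 CPM over the IL-4 libraries and to 0.0994 CPM over the 400 µM libraries. Hmox1 averaged 867 ± 219 CPM in controls, 26440 ± 2141 CPM at 200 µM and 23500 ± 1791 CPM at 400 µM. All 10 macrophage markers had counts in every group, and their summed level was 42140 to 48310 CPM in controls, 54110 to 64450 CPM at 200 µM and 49150 to 61530 CPM at 400 µM. Most of that sum was lysozyme, Lyz2, at 26940 to 31700 CPM in controls, 40580 to 49000 CPM at 200 µM and 36260 to 46110 CPM at 400 µM. Of the 10, 2 were called at 400 µM, both lower: the Fc receptor Fcgr1 (log2 fold change -1.11 ± 0.24, adjusted p = 0.00465, edgeR) and the engulfment receptor Mertk (-1.35 ± 0.47, adjusted p = 0.0480). Adgre1, Cd68 and Cd14 were not called, with every 400 µM library below every control. Replicate 2 at 400 µM and replicate 3 with IFN-γ stood apart from their groups: their chi-square per degree of freedom against the other 2 replicates was 49.0 to 62.4 and 130.4 to 134.8, while the other 2 differed by 10.8 and 44.7. Replicate 2 at 200 µM lay nearer, at 22.65 to 35.96 against 8.52 for the other 2, and it stays in the fits without the libraries that stood apart. Several results of the 9 genes that rest on them are given with and without them, while the values of single other genes use all libraries. The labels do not say that replicates came from separate animals, and any p-value here reflects only how far these libraries spread, which may be technical. In bulk RNA, a gene switched on in few cells and a gene switched on weakly in all cells cannot be told apart.

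Stretches from the start regions of 7 of the genes are shown because they hold the motif matches and CpG-rich sequence described here. RefSeq start sites (GRCm38.p6) were found for all 9 genes, with 13 start windows between them, each running from 250 bases before the start to 50 after it. In the first set, capitals mark a match to TGACNNNGC, the core of the antioxidant response element, which in each of the 3 lies on the strand opposite to the gene.
Ceacam10 chr7:24777047-24777166 (+ strand): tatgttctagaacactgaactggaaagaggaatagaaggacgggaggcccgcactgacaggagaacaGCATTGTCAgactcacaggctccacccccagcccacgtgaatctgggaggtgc
Rassf6 chr5:90640528-90640647 (- strand): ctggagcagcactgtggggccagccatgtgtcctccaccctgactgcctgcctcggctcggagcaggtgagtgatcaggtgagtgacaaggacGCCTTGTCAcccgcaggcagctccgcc
Hsd11b1 chr1:193242491-193242610 (- strand): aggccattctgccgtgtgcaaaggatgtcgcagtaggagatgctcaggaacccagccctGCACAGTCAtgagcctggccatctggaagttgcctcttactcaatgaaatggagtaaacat
The Ceacam10 and Rassf6 stretches are the 120 bases before the start, with matches at -53 to -45 and -27 to -19, and the Hsd11b1 stretch runs from -250 to -131, with its match at -191 to -183. In the next stretch, capitals mark TGANTCA, the AP-1 site, at -35 to -29 before the second start site of Rnf183.
Rnf183 chr4:62434641-62434760 (- strand): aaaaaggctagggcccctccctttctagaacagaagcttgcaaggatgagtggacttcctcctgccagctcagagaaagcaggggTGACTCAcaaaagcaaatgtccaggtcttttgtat
In the last set, the 120 bases before the start of Arnt2, Hunk and Ptpn14, capitals mark CpG dinucleotides.
Arnt2 chr7:84410039-84410158 (- strand): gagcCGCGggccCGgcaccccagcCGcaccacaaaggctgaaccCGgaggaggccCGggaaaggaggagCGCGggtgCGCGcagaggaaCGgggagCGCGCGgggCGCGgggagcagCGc
Hunk chr16:90386277-90386396 (+ strand): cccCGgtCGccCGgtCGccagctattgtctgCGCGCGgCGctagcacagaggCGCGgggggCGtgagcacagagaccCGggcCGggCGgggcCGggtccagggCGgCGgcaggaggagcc
Ptpn14 chr1:189728148-189728267 (+ strand): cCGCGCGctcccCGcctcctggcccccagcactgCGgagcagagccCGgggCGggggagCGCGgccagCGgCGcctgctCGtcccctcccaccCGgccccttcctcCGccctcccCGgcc
These 3 stretches hold 17, 17 and 15 CpG dinucleotides, against 0 in the Rnf183 stretch and 3, 5 and 2 in those of Ceacam10, Rassf6 and Hsd11b1.

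Both strands of the 13 windows were searched for 8 motifs, and the same search of all 32851 start windows in the table gives the share to set beside each count. That share is of windows, and no share of genes is given. The antioxidant core TGACNNNGC was in 3 of 9 genes (4 of 13 windows), and in 12.4% of all windows. The Ceacam10 windows overlap and hold the same match, which is counted in each. TGANTCA was in 1 gene, Rnf183, against 7.81% of all windows, and the longer MAF recognition element GCTGANTCA, which contains it, was in 0 of 9, against 1.19%. The E-box CACGTG was in Ceacam10 alone of the 9 (7.15% of all windows), and ACGTG, the hypoxia response core that lies within it, was in Ceacam10 and Six4 (19.6%). TGCNCNC, a metal response core, was in 8 of 9 genes, in 10 of 13 windows and in 51.0% of all windows. The heat shock core GAANNTTC and the TATA box TATAAA were in 0 of 9, against 7.86% and 13.6%. A match describes letters in these windows and is not a site of binding.

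The 9 genes ranged from CpG-rich to CpG-poor starts. Hunk had 41 CpG dinucleotides in its window and Arnt2 and Ptpn14 had 40 each. Six4, Ptprn and Rassf6 had 13 to 16. Hsd11b1 had 6, Ceacam10 had 4 at both of its start sites, and Rnf183 had 4 and 1. Over all windows the median was 7, with quartiles of 3 and 20, so 3 of the 9 genes lay above the upper quartile and Rnf183, Ceacam10 and Hsd11b1 lay below the median.

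**Figure D1:**
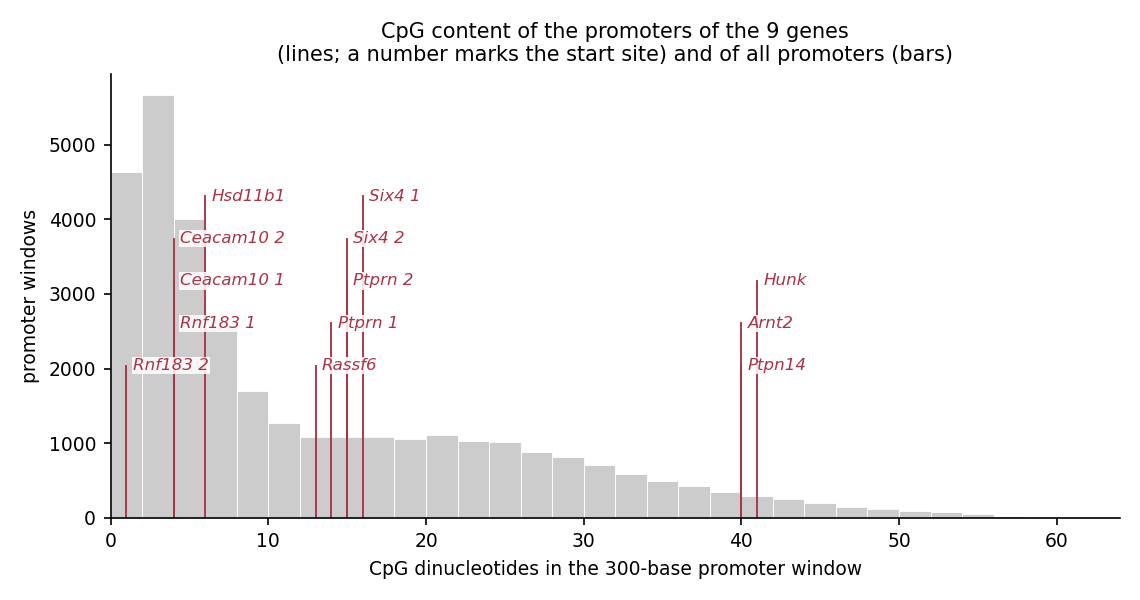
CpG dinucleotides in the 300 bases around each start site of the 9 genes (red lines, a number after the gene marks the start site, line heights only separate the names) over a histogram of all 32851 start windows in the RefSeq table (grey bars). Hunk, Arnt2 and Ptpn14 stand at 40 to 41, far to the right of the median of 7, and Rnf183, Ceacam10 and Hsd11b1 stand at 1 to 6.

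Six4, a homeobox transcription factor that works with EYA coactivators in developing muscle, kidney and face, was at 0 counts in all 3 controls. It had 26, 99 and 22 counts at 200 µM (1.86, 8.37 and 2.33 CPM) and 40, 142 and 63 counts at 400 µM (4.38, 17.0 and 4.95 CPM). Replicate 2 was the highest at both doses, and the doses overlapped. Set against a floor of 3 counts over the controls, Six4 was at least 57.7-fold higher at 200 µM and at least 112-fold higher at 400 µM. Without replicate 2 these bounds were 28.4-fold and 65.2-fold. Without control 1 or control 2 they were 35.9-fold and 34.7-fold at 200 µM, and 69.9-fold and 67.5-fold at 400 µM, since fewer control reads then set the floor. Such floors cover counting error only. With IL-4 it had 1, 0 and 1 counts and with IFN-γ 1, 0 and 0.

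Arnt2, a bHLH-PAS protein that pairs with other factors of its family and is best known from the developing hypothalamus, had 1, 3 and 0 counts in controls (0.0640, 0.182 and 0 CPM). At 200 µM it stood at 7.59, 18.3 and 8.06 CPM, and at 400 µM at 14.1, 21.8 and 13.1 CPM. All heme-albumin libraries lay far above the controls, and replicate 2 was the highest at each dose. The fitted log2 fold change against control was 6.77 ± 0.60 at 200 µM and 7.29 ± 0.60 at 400 µM (SE). Both rest on few control reads: without control 2, which holds 3 of the 4 counts, they were 7.85 and 8.39.

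Ptpn14, a tyrosine phosphatase with a FERM domain that binds the Hippo effector YAP and holds it outside the nucleus, depended most on 1 replicate. It was at 0 counts in all 3 controls, at 1, 40 and 2 counts at 200 µM, and at 7, 145 and 18 counts at 400 µM. In CPM these were 0.0716, 3.38 and 0.212 at 200 µM and 0.767, 17.4 and 1.42 at 400 µM. Replicate 2 held almost all of its reads at both doses, although every heme-albumin library had at least 1 read. Against the floor of 3 counts, Ptpn14 was at least 16.9-fold higher at 200 µM and at least 77.8-fold higher at 400 µM. Without replicate 2 at 400 µM that bound fell to 15.8-fold, and without replicate 2 at 200 µM, where 3 counts were left, no fold can be given. Without control 1 or control 2 the bounds were 10.5-fold and 10.1-fold at 200 µM, and 48.5-fold and 46.8-fold at 400 µM. Without replicate 1 at 200 µM and replicate 3 at 400 µM they were 27.3-fold and 120.3-fold.

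Hunk, a serine/threonine kinase related to AMPK, varied between replicates with a coefficient of variation of 20.9% at 200 µM and 31.8% at 400 µM. It had 3, 2 and 1 counts in controls (0.192, 0.121 and 0.108 CPM), 4.37, 3.55 and 2.87 CPM at 200 µM, and 4.49, 4.32 and 2.36 CPM at 400 µM. The range at 200 µM lay within that at 400 µM. The log2 fold change against control was 4.57 ± 0.45 at 200 µM and 4.60 ± 0.45 at 400 µM. Hunk was at 0 counts in all 6 cytokine-treated libraries.

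Rassf6, a Ras-association protein whose SARAH domain binds the MST kinases of the Hippo pathway, had 3, 1 and 3 counts in controls (0.192, 0.0605 and 0.323 CPM). It stood at 1.22, 4.23 and 1.91 CPM at 200 µM and at 4.49, 6.60 and 3.62 CPM at 400 µM. The doses overlapped through replicate 2 at 200 µM. The log2 fold change was 3.76 ± 0.65 at 200 µM, 3.10 without replicate 2, and 4.75 ± 0.63 at 400 µM.

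Rnf183, a membrane-bound RING ubiquitin ligase known in mouse from the kidney collecting duct, had the highest level per kilobase of exon of the 9. It had 10, 8 and 4 counts in controls (0.640, 0.484 and 0.430 CPM), 38.2, 60.4 and 31.5 CPM at 200 µM, and 44.3, 43.1 and 41.8 CPM at 400 µM. The 3 libraries at 400 µM lay within the range of those at 200 µM and almost coincided, with a coefficient of variation of 2.90%. Against control, the log2 fold change was 6.34 ± 0.34 at 200 µM and 6.32 ± 0.34 at 400 µM.

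Ptprn, a receptor-type phosphatase without catalytic activity that sits in the membrane of dense core vesicles of endocrine and nerve cells, had 3, 2 and 4 counts in controls (0.192, 0.121 and 0.430 CPM). It stood at 27.0, 34.1 and 21.6 CPM at 200 µM and at 46.3, 27.1 and 33.1 CPM at 400 µM. Unlike Six4 or Ptpn14, it was not raised in replicate 2 at the higher dose, where that replicate was the lowest. On the log2 scale the difference from control was 6.92 ± 0.60 at 200 µM and 7.28 ± 0.60 at 400 µM.

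Hsd11b1, the enzyme of the endoplasmic reticulum that regenerates active glucocorticoid from its inert 11-keto form, had 0, 1 and 3 counts in controls (0, 0.0605 and 0.323 CPM). It stood at 7.23, 30.1 and 14.5 CPM at 200 µM and at 13.5, 18.7 and 16.5 CPM at 400 µM. The spread was wide at the lower dose and narrow at the higher dose, with like means of 17.3 ± 11.7 and 16.2 ± 2.63 CPM. Fitted against control, its log2 fold change was 7.34 ± 0.85 at 200 µM and 7.25 ± 0.85 at 400 µM. Without control 3, which holds 3 of the 4 control counts, these were 8.76 and 8.69, and without replicate 2 the value at 200 µM was 6.66. Lamb3 lies across Hsd11b1 on the opposite strand, without a shared exonic base.

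Ceacam10, a secreted member of the carcinoembryonic antigen family found in rodents, had 4, 4 and 3 counts in controls (0.256, 0.242 and 0.323 CPM). It stood at 0.859, 5.66 and 2.76 CPM at 200 µM and at 2.52, 17.4 and 5.50 CPM at 400 µM. Replicate 2 was the highest and replicate 1 the lowest at both doses. The log2 fold change was 3.48 ± 0.95 at 200 µM and 4.93 ± 0.92 at 400 µM, and without replicate 2 it was 2.67 and 3.89.

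In all 9 genes every heme-albumin library lay above every control library, at each dose. Of all genes tested, 23.0% were separated in this way at 400 µM and 27.3% at 200 µM, and nothing is read from the count of 9 because the genes were chosen on this contrast.

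**Figure D2:**
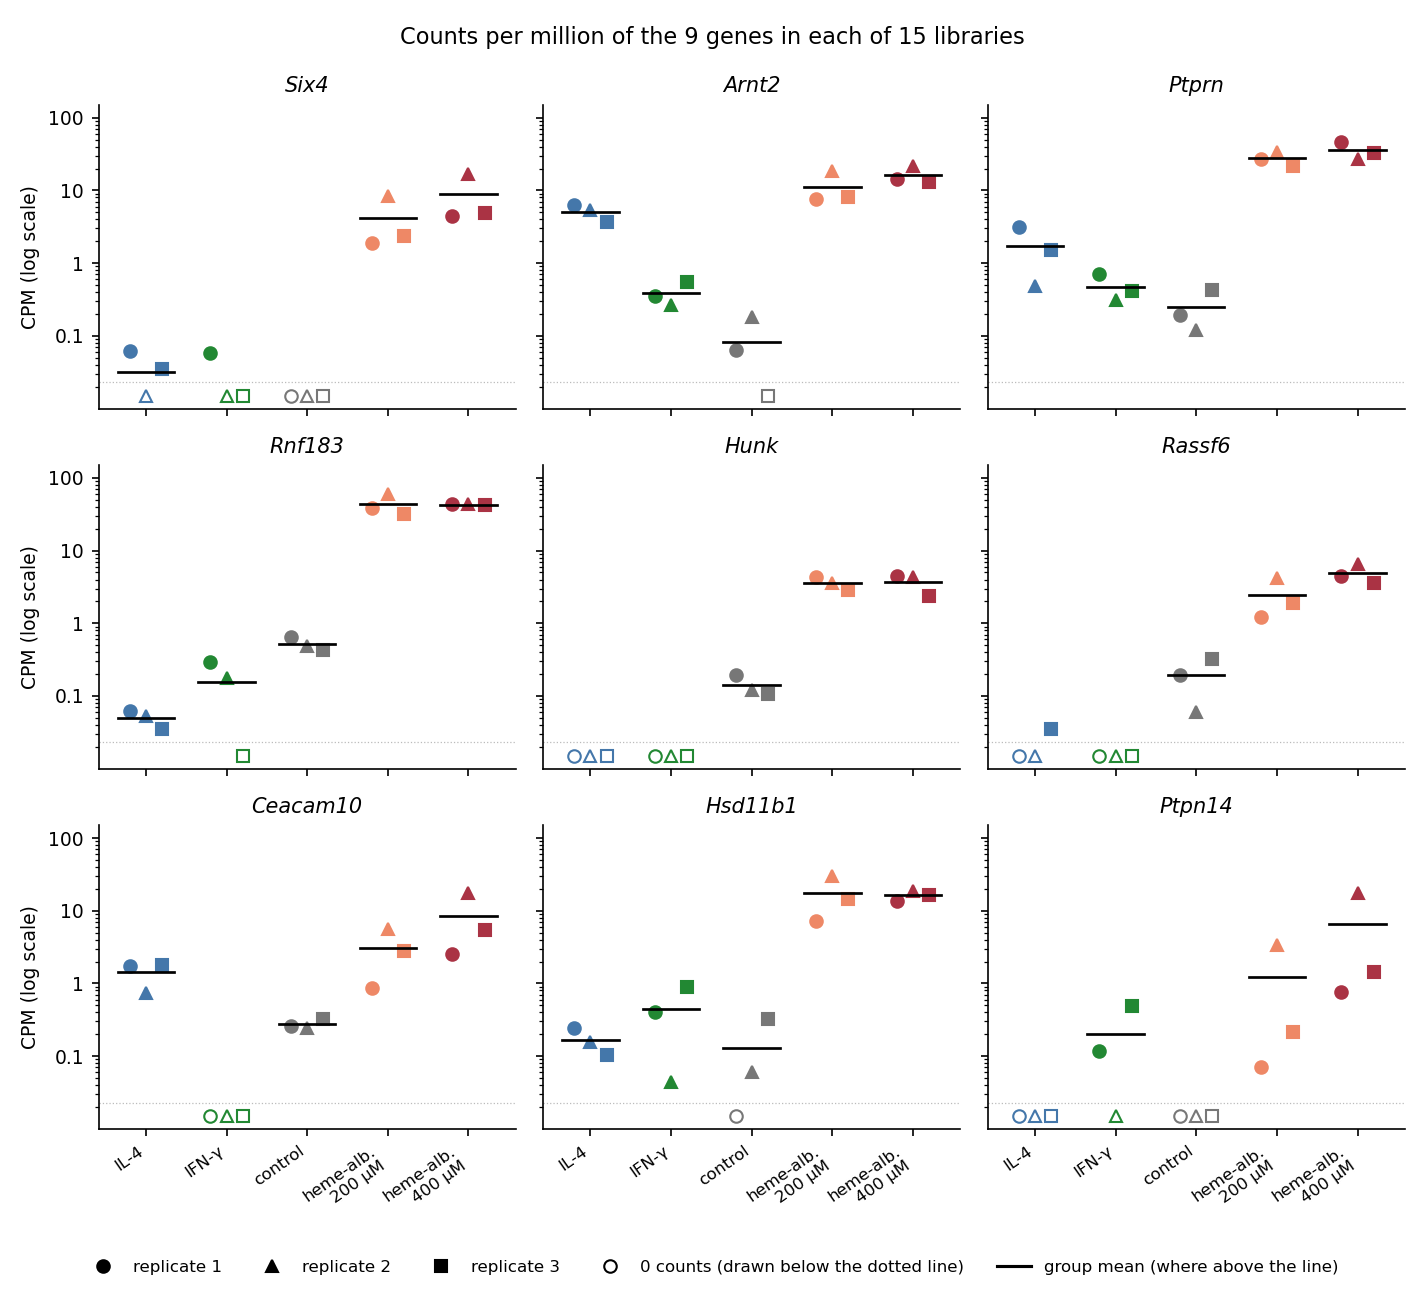
Level of each of the 9 genes in each of the 15 libraries, in CPM on a log axis, with IL-4 and IFN-γ left of the control and the heme-albumin doses to its right. Symbols give the replicate number, open symbols below the dotted line are libraries with 0 counts, and lines are group means where these lie above that line. Heme-albumin libraries stand above the controls in every panel, the Ptpn14 triangles (replicate 2) stand far above its other libraries, and IL-4 libraries come close to the heme-albumin range for Arnt2 and reach into it for Ceacam10.

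Per kilobase of exon, which allows genes to be compared, the order at 400 µM was Rnf183 (28.2 CPM per kb), Ptprn (8.36 ± 2.32), Ceacam10 (5.66 ± 5.26), Hsd11b1 (3.82 ± 0.618), Arnt2 (2.13 ± 0.622), Rassf6 (1.15 ± 0.359), Six4 (0.810 ± 0.658), Ptpn14 (0.486 ± 0.702) and Hunk (0.443 ± 0.141). Rnf183 stood clear of Ptprn, Hsd11b1 clear of Arnt2, and Arnt2 clear of Rassf6, with no overlap of libraries. Ceacam10 overlapped both of its neighbours, Ptprn and Hsd11b1, which did not overlap each other, and the libraries of Rassf6 and Six4, of Six4 and Ptpn14, and of Ptpn14 and Hunk overlapped. At 200 µM Rnf183 led in the same way with 28.5 CPM per kb, Hsd11b1 stood at 4.07 and Ceacam10 at 2.07, and Ptpn14 was the lowest at 0.0911.

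**Figure D3:**
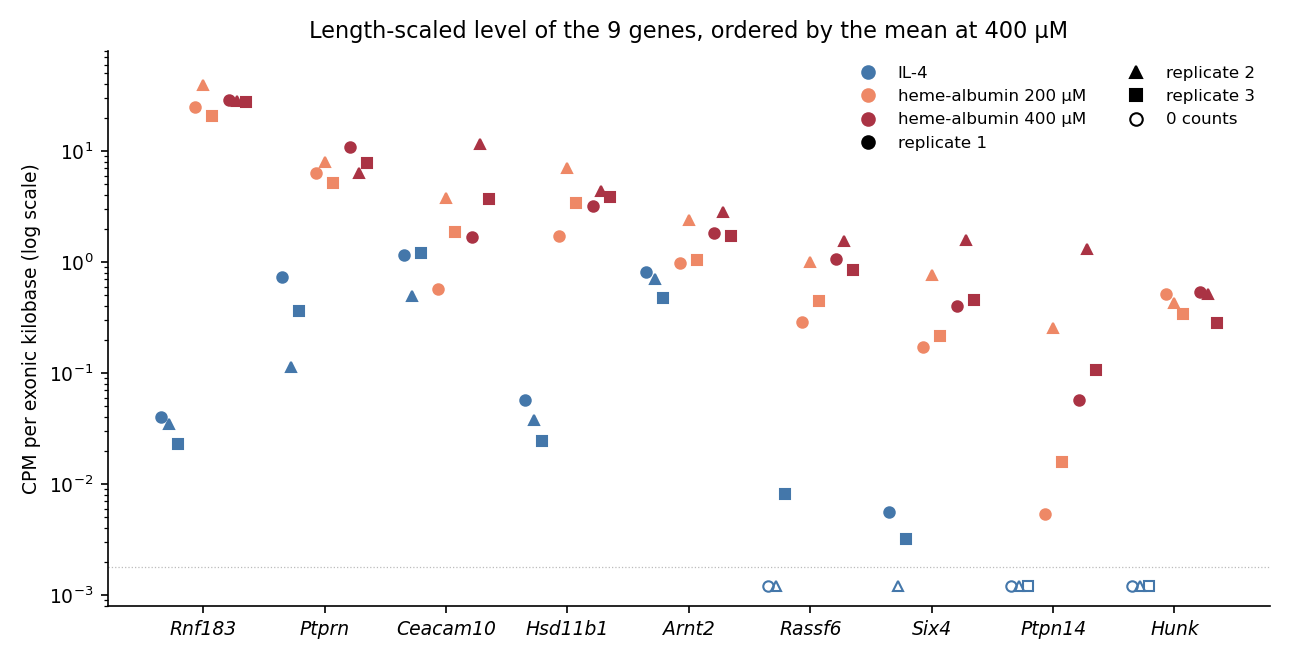
Level per kilobase of exon (CPM per kb, log axis) of the 9 genes with IL-4, at 200 µM and at 400 µM heme-albumin, ordered by the mean at 400 µM, with a point per library, the symbol giving the replicate number and open symbols 0 counts. Rnf183 leads at about 28 CPM per kb at both doses, Hunk and Ptpn14 are the lowest at 400 µM, and with IL-4 only Arnt2, Ceacam10 and Ptprn come near 1 CPM per kb.

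Whether the higher dose gave more of these transcripts than the lower was tested directly. The choice of genes did not use this contrast, but it did use the heme-albumin libraries of both doses, so the test is not independent of it. None of the 9 genes was called: 0 of 9 passed an adjusted p of 0.05, and of all 11883 genes edgeR called 0 (0%). At an unadjusted p under 0.05 there were 1796 genes (15.1%) and 0 of the 9, and DESeq2 called 3 genes higher and 10 lower, none of them among the 9, 7 of which it gave no adjusted p. The libraries of both doses overlapped in 9 of 9 genes, where 10.0% of all genes were separated upward and 12.4% downward.

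Ptpn14 had the highest estimate, a log2 fold change of 2.37 ± 1.35 (95% interval -0.66 to 5.41, adjusted p = 0.410) at 400 against 200 µM, and it rested on replicate 2: without that library at 400 µM it was -0.14. Ceacam10 differed by 1.45 ± 0.70 (-0.08 to 2.98, adjusted p = 0.343), and this was 0.40 without replicate 2 at 400 µM. Six4 differed by 1.05 ± 0.62 (-0.32 to 2.42, adjusted p = 0.422), and Rassf6 by 0.99 ± 0.46 (-0.02 to 2.00, adjusted p = 0.331). Without replicate 2 at 400 µM, Six4 differed by 0.16 and Rassf6 by 0.72. Without replicate 2 at 200 µM instead, the differences were 2.06 and 1.66. None of the intervals given here leaves out 0.

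Rnf183 and Hunk had the narrowest intervals, which leave out a log2 difference of 1 in either direction. The log2 fold change of Rnf183 at 400 against 200 µM was -0.01 ± 0.23 (-0.52 to 0.49, adjusted p = 0.989) and that of Hunk 0.03 ± 0.31 (-0.68 to 0.73, adjusted p = 0.981). Hsd11b1 differed by -0.09 ± 0.49 (-1.15 to 0.97, adjusted p = 0.955). Arnt2 and Ptprn lay between, at 0.53 ± 0.35 (-0.23 to 1.28, adjusted p = 0.464) and 0.36 ± 0.37 (-0.43 to 1.15, adjusted p = 0.640). Without replicate 2 at 400 µM these were 0.26 and 0.52. A p that misses the threshold does not show that the doses act alike.

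Within replicate numbers, which share a date in the column headers, 5 genes were higher at 400 than at 200 µM in 3 of 3 replicates, as were 25.2% of all genes tested. The CPM ratio of 400 over 200 µM was 2.36, 2.04 and 2.12 for Six4 in replicates 1 to 3, the closest agreement of those 5. It was 10.7, 5.14 and 6.67 for Ptpn14, whose replicates 1 and 3 rest on 1 and 2 counts at 200 µM. Ceacam10 gave 2.93, 3.07 and 2.00, Rassf6 3.69, 1.56 and 1.89, and Arnt2 1.86, 1.20 and 1.62. The other 4, Ptprn, Rnf183, Hunk and Hsd11b1, were higher at 400 µM in 2 of 3 replicates, with ratios between 0.622 and 1.86. Hmox1 was lower at 400 µM in 3 of 3, at 0.877, 0.886 and 0.906.

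Replicate 2 carried the highest level of 8 of the 9 genes at 200 µM, of 6 at 400 µM and of 6 at both doses. The same held for 38.7%, 40.5% and 20.3% of all genes tested, and for 46.7% at both doses of the 1744 genes called higher at 400 µM. Replicate 2 over the mean of replicates 1 and 3 was 23.8 and 15.9 for Ptpn14 at 200 and 400 µM, 3.99 and 3.65 for Six4, and 3.13 and 4.33 for Ceacam10. It was 0.982 and 1.26 for Hunk, 1.73 and 1.00 for Rnf183, and 1.15 and 1.14 for Hmox1. What sets replicate 2 apart was not tested.

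**Figure D4:**
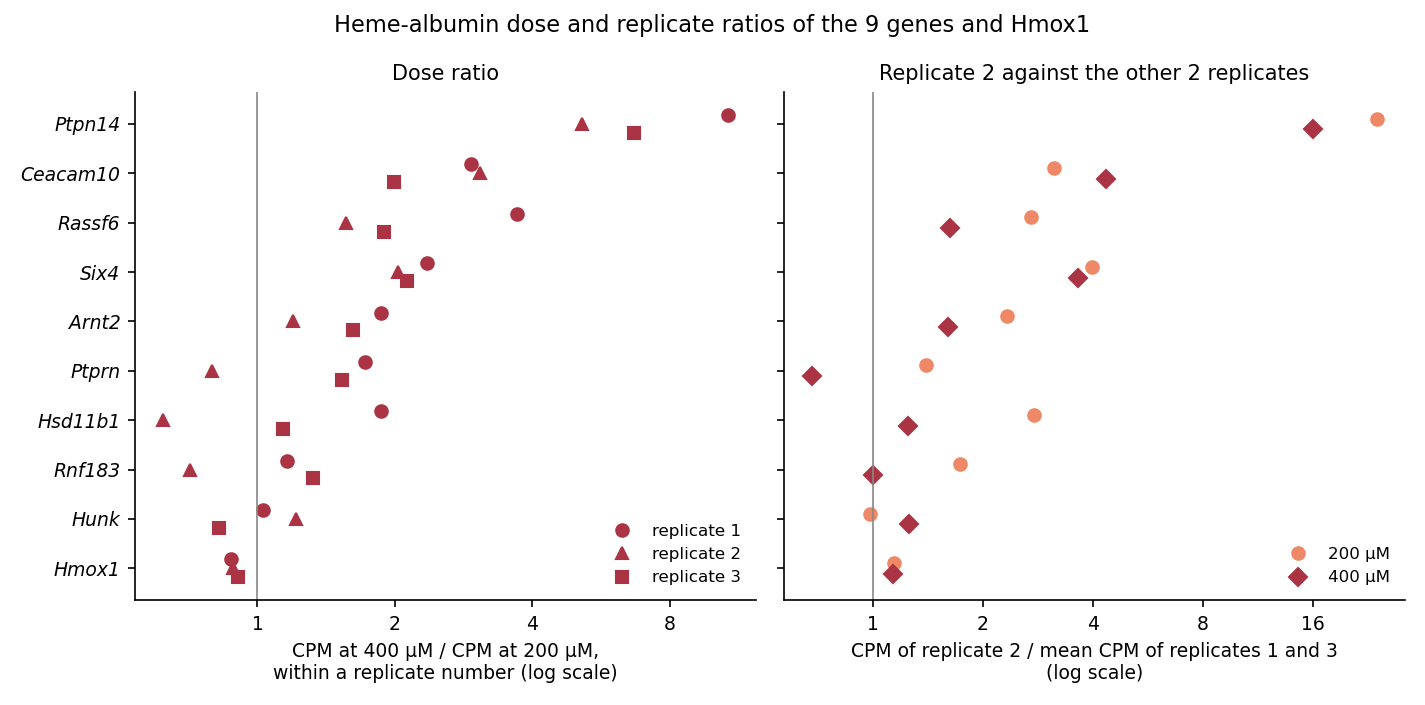
Left, CPM at 400 µM over CPM at 200 µM heme-albumin within each replicate number; right, replicate 2 over the mean of replicates 1 and 3 at each dose, both on log axes for the 9 genes and Hmox1, with a line at 1. Ptpn14 stands far from the others on both sides, at 5.14 to 10.7 and at 15.9 to 23.8, while Hunk, Rnf183 and Hmox1 stay near 1 on the left.

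IL-4 and IFN-γ were compared with the same 3 controls as heme-albumin. The controls are near 0 because the genes were chosen so, which leaves little room for a fall. The same choice leans these contrasts toward a rise, and their p-values do not allow for it. Six4, Rnf183, Hunk, Rassf6, Hsd11b1 and Ptpn14 had too few counts outside the heme-albumin libraries to pass the count filter. They were tested only through the libraries on which they were chosen, so no conclusion is drawn from their cytokine calls. With IL-4, 2 of 9 genes rose, where 14.9% of all genes did, and 2 fell, where 12.0% of all did. All 3 IL-4 libraries lay above the controls in 3 genes (28.3% of all genes) and below them in 3 (26.7%).

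Arnt2 was the clearest of those that IL-4 raised. It stood at 6.31, 5.40 and 3.65 CPM with IL-4, against 0.0640, 0.182 and 0 CPM in controls, with no overlap. Against control, the log2 fold change was 5.61 ± 0.63 (adjusted p = 2.2e-05, and 9.8e-11 to 3.6e-04 over the alternatives), and 6.70 without control 2. At 5.12 ± 1.35 CPM, its IL-4 mean lay below the 16.3 ± 4.78 CPM of heme-albumin at 400 µM.

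Ptprn stood at 3.12, 0.477 and 1.53 CPM with IL-4, against 0.192, 0.121 and 0.430 CPM in controls. All 3 IL-4 libraries lay above the controls, the lowest of them only just. It rose by a log2 fold change of 2.88 ± 0.71 (adjusted p = 0.00875), and without control 2 the adjusted p was 0.0502. Without IL-4 replicate 1 the value was 2.23. Ceacam10 stood at 1.72, 0.742 and 1.81 CPM with IL-4, against 0.256, 0.242 and 0.323 CPM in controls. Its libraries did not overlap either, but the difference of 2.39 ± 0.97 missed the threshold (adjusted p = 0.0942, and 0.00334 to 0.220 over the alternatives). The IL-4 libraries of Ceacam10 lay within or just below its range at 200 µM heme-albumin, 0.859 to 5.66 CPM. DESeq2 called the difference from control (adjusted p = 0.0214), as did the fit without the libraries that stood apart (adjusted p = 0.0307).

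Rnf183 and Hunk, low but present in controls, were lower with IL-4. Rnf183 had 1, 1 and 1 counts with IL-4, against 10, 8 and 4 counts in the smaller control libraries, a fall by a ratio of 11.3-fold (95% counting interval 3.40 to 59.1, adjusted p = 0.00410). Hunk had 0 counts with IL-4, against 3, 2 and 1 counts in controls, and was at least 3.09-fold lower (adjusted p = 0.0134). Rassf6 had 0, 0 and 1 counts with IL-4, against 3, 1 and 3 in controls, and the ratio, 10.8-fold lower (1.39 to 487), missed the threshold (adjusted p = 0.1003). Hsd11b1 had 4, 3 and 3 counts with IL-4, against 0, 1 and 3 in controls (log2 fold change 0.65 ± 1.43, adjusted p = 0.783). Six4 had 2 counts over the IL-4 libraries and Ptpn14 had 0, so neither gives a fold.

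With IFN-γ, 0 of 9 genes rose, where 24.1% of all genes did, and 3 fell, where 19.5% of all did. Libraries did not overlap upward in 1 gene, Arnt2 (27.3% of all genes), and downward in 4 (24.5%). The 0 called higher stands at 0 with DESeq2 too. Arnt2 stood at 0.352, 0.267 and 0.551 CPM with IFN-γ, against 0.0640, 0.182 and 0 CPM in controls, and missed the threshold (1.88 ± 0.88, adjusted p = 0.0995). Hunk was at 0 counts with IFN-γ and at least 2.61-fold lower than in controls (adjusted p = 0.0117, and 0.00776 to 0.0387 over the alternatives). Both other falls hung on single libraries. Rnf183 had 5, 4 and 0 counts with IFN-γ, against 10, 8 and 4 in controls, and fell by 1.63 ± 0.59 on the log2 scale (adjusted p = 0.0396; -2.22 without IFN-γ replicate 1). Rassf6 had 0 counts with IFN-γ, against 3, 1 and 3 in controls, and was at least 3.04-fold lower (adjusted p = 0.0339).

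The Rnf183 call was lost without control 1 (adjusted p = 0.129), control 2 (0.0697), control 3 (0.0546), IFN-γ replicate 2 (0.0859) or IFN-γ replicate 3 (0.130), and its range over the alternatives was 0.0182 to 0.155. The Rassf6 call was lost without control 1 (adjusted p = 0.0737), control 3 (0.0800), or IFN-γ replicate 1 (0.0567), 2 (0.0794) or 3 (0.0689), and its range was 0.0101 to 0.0800. Ceacam10 was at 0 counts with IFN-γ, at least 4.78-fold below the controls, and missed the threshold (adjusted p = 0.0981), while DESeq2 called it (adjusted p = 0.00375). Hsd11b1 had 7, 1 and 13 counts with IFN-γ, against 0, 1 and 3 in controls (1.96 ± 1.25, adjusted p = 0.221), and Ptprn 12, 7 and 6, against 3, 2 and 4 (1.06 ± 0.88, adjusted p = 0.350). Ptpn14 had 2, 0 and 7 counts with IFN-γ, against 0 in controls, at least 2.30-fold higher (adjusted p = 0.448).

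IL-4 against IFN-γ shares no library with the contrast on which the genes were chosen, although the count filter drew on all libraries. Of the 9, 3 were higher with IL-4, where 24.3% of all genes were, and 0 were lower, where 26.3% of all were. Libraries did not overlap upward in 2 genes (29.0% of all genes) and downward in 0 (28.4%). Arnt2 averaged 5.12 ± 1.35 CPM with IL-4 and 0.390 ± 0.146 CPM with IFN-γ, a log2 fold change of 3.73 ± 0.48 (adjusted p = 2.4e-05). Ceacam10 had 28, 14 and 52 counts with IL-4, against 0 in all IFN-γ libraries, and was at least 26.5-fold higher (adjusted p = 0.00338, and 1.5e-06 to 0.0127 over the alternatives).

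Ptprn averaged 1.71 ± 1.33 CPM with IL-4 and 0.476 ± 0.203 CPM with IFN-γ, and its libraries overlapped. The difference of 1.82 ± 0.58 passed (adjusted p = 0.0181) but was lost without IL-4 replicate 1 (1.17, adjusted p = 0.0890), without IFN-γ replicate 2 (0.0757) and with only the 6 libraries compared (0.0826). Rnf183 had 3 counts over the IL-4 libraries and 9 over the IFN-γ libraries, 3.55-fold lower with an interval of 0.886 to 20.4 (adjusted p = 0.129). Hsd11b1 (-1.31 ± 1.02, adjusted p = 0.301) and Ptpn14 (at least 3.55-fold lower, adjusted p = 0.363) were not called, and Hunk, Rassf6 and Six4 had too few counts in both groups for a fold.

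Genes related to each of the 9 by family or pathway were followed in heme-albumin against control, in 10 lists chosen with earlier results of these data known. Of all genes tested, 14.7% rose and 10.8% fell at 400 µM, and 14.0% rose and 9.48% fell at 200 µM. These 1658 rises and 1127 falls at 200 µM were 1003 rises without control 1, and 1029 rises and 650 falls without replicate 2 at 200 µM. The median log2 fold change of all genes was 0.00846 at 400 µM and 0.0235 at 200 µM. Over the 10 lists together, 24 genes rose and 9 fell at 400 µM, and 20 rose and 11 fell at 200 µM. The number tested is given with each list below, and nothing is read from these pooled counts. Without control 1, 5 fell at 400 µM and 8 rose and 7 fell at 200 µM. Without replicate 2 at 200 µM, 9 rose and 4 fell. Without replicate 1 at 200 µM 6 fell, without control 2 12 rose, and without control 3 10 rose and 7 fell.

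Among relatives of the transcription factors, some rose and some fell. Of 5 tested genes among the homeobox relatives of Six4 and their Eya and Dach partners, 1 rose and 1 fell at 400 µM, with a median of -0.49 (0 and 1 at 200 µM, median -0.70). Dach1, a corepressor that works with Six4 and its relatives, averaged 4.29 CPM (SD 4.11) at 400 µM against 0.522 CPM in controls (2.93 ± 0.77, adjusted p = 0.0132). Its spread at 400 µM was nearly as wide as its mean, and it was not called at 200 µM (adjusted p = 0.232). Six5 averaged 0.493 CPM at 400 µM against 1.34 CPM in controls (-1.39 ± 0.40, adjusted p = 0.0218). Of the EYA coactivators, Eya3 (0.23 ± 0.10, adjusted p = 0.106) and Eya4 (-0.60 ± 0.31, adjusted p = 0.178) did not pass at 400 µM. Eya1, added after its values were seen, averaged 14.4 CPM at 400 µM against 20.2 CPM in controls and was not called there (-0.49 ± 0.26, adjusted p = 0.196), and it fell at 200 µM, where it averaged 9.41 CPM (-1.10 ± 0.27, adjusted p = 0.00988).

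Of 13 tested bHLH-PAS genes, the family of Arnt2, 4 rose and 2 fell at 400 µM, with a median of -0.08 (3 and 3 at 200 µM, median -0.11). Ahr, the receptor for aryl hydrocarbons, averaged 16.8 CPM at 400 µM against 2.49 CPM in controls (2.75 ± 0.34, adjusted p = 7.1e-05). Its repressor Ahrr averaged 41.9 CPM against 12.6 CPM (1.74 ± 0.25, adjusted p = 2.2e-04). Epas1, the hypoxia factor HIF-2α, fell to 3.56 CPM against 12.7 CPM (-1.82 ± 0.30, adjusted p = 7.7e-04), and the coactivator Ncoa3 fell to 84.4 CPM against 199 CPM (-1.24 ± 0.15, adjusted p = 7.9e-05). Both Ahr and Ahrr also rose, and Epas1 and Ncoa3 fell, at 200 µM.

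Among relatives of the signalling genes, more rose than fell at 400 µM. Of 13 tested AMPK-related kinases 4 rose and 0 fell at 400 µM, with a median of 0.25 (3 and 0 at 200 µM, median 0.27). Prkaa2, the AMPK α2 subunit, averaged 5.61 CPM (SD 3.77) at 400 µM against 0.810 CPM in controls (2.80 ± 0.63, adjusted p = 0.00542), while Prkaa1 (0.49 ± 0.11, adjusted p = 0.00403), Sik3 (0.46 ± 0.09, adjusted p = 0.00282) and Nuak2 (0.63 ± 0.21, adjusted p = 0.0415) rose by less. Of 7 tested RASSF genes 1 rose, Rassf8 (74.0 CPM, SD 39.3, at 400 µM against 21.6 CPM, 1.77 ± 0.36, adjusted p = 0.00294), and 1 fell, Rassf5 (-0.47 ± 0.12, adjusted p = 0.0119). The RASSF median was -0.25 at 400 µM and -0.06 at 200 µM, where 1 rose and 0 fell.

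In the Hippo pathway, to which Rassf6 and Ptpn14 both belong, 14 of 24 genes were tested, and 4 rose and 0 fell at 400 µM (median 0.03), against 3 and 3 at 200 µM (median -0.12). Amotl1, a junction protein that binds YAP, averaged 20.6 CPM at 400 µM against 7.82 CPM in controls (1.39 ± 0.41, adjusted p = 0.0239). Wwc1, a scaffold of the kinase LATS also called KIBRA, averaged 1.46 CPM against 0.294 CPM (2.28 ± 0.63, adjusted p = 0.0170). Limd1 (0.47 ± 0.12, adjusted p = 0.00956) and Stk3, the MST2 kinase (0.42 ± 0.14, adjusted p = 0.0347), rose by less. The effectors were near absent: Yap1, Wwtr1 and Tead1 to Tead4 averaged at most 0.0282 CPM in the control and heme-albumin groups, and the YAP target genes Ctgf, Cyr61 and Ankrd1 at most 0.249 CPM, all too low to be tested. Of 13 tested non-receptor tyrosine phosphatases, 3 rose and 0 fell at each dose, with medians of 0.02 at 400 µM and -0.03 at 200 µM. Ptpn22, a brake on immune receptor signalling, averaged 112 CPM at 400 µM against 44.6 CPM (1.32 ± 0.11, adjusted p = 2.4e-06), Ptpn12 rose by 0.78 ± 0.16 (adjusted p = 0.00357) and Ptpn1 by 0.59 ± 0.16 (adjusted p = 0.0142).

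Few of the genes that share a compartment with Ptprn in endocrine cells were measurable. Of 18 genes of dense core vesicles, 7 were tested, and 1 rose and 0 fell at 400 µM (median 0.39), with 0 and 0 at 200 µM (median 0.19). Pam, which amidates peptide hormones, rose (94.9 CPM at 400 µM against 72.6 CPM, 0.39 ± 0.08, adjusted p = 0.00267), and Rab27a, Cadps and Ica1 did not pass (adjusted p = 0.262, 0.295 and 0.332). With IL-4, under which Ptprn rose, 6 of the 7 fell, where 12.0% of all genes did, and 0 rose, with a median of -1.53 against -0.000353 for all genes. Of the 18, 5 had no counts in any library.

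Of 11 tested genes for RING ligases and endoplasmic reticulum-associated degradation, listed beside Rnf183, 1 rose and 3 fell at 400 µM (median 0.01), and 2 rose and 3 fell at 200 µM (median 0.09). Herpud1, a stress-induced component of that machinery, averaged 34.7 CPM at 400 µM against 83.9 CPM in controls (-1.27 ± 0.30, adjusted p = 0.00682). Sel1l (-0.32 ± 0.10, adjusted p = 0.0354) and Rnf103 (-0.46 ± 0.15, adjusted p = 0.0384) fell, and Derl2 rose (0.28 ± 0.07, adjusted p = 0.0129).

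The enzyme that supplies Hsd11b1 rose with heme-albumin. H6pd, which makes the NADPH that Hsd11b1 uses in the endoplasmic reticulum, averaged 195 CPM at 200 µM and 162 CPM at 400 µM, against 59.5 CPM in controls (1.71 ± 0.16 at 200 µM, adjusted p = 6.7e-06, and 1.45 ± 0.16 at 400 µM, adjusted p = 2.9e-05). Of 11 tested genes of glucocorticoid activation and response, 3 rose and 2 fell at 400 µM (median -0.04), and 3 rose and 1 fell at 200 µM (median 0.38). Genes that glucocorticoid induces moved apart: Tsc22d3, which encodes GILZ, fell to 26.8 CPM at 400 µM against 70.1 CPM (-1.39 ± 0.18, adjusted p = 8.7e-05), and Dusp1 averaged 67.1 CPM against 20.5 CPM (1.72 ± 0.40, adjusted p = 0.00677). Akr1c18, a steroid-reducing enzyme at 2 counts over the controls, was 61.8-fold higher at 400 µM (95% counting interval 16.6 to 518, adjusted p = 4.6e-05).

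Ceacam10 was accompanied by 2 of its relatives. Of 14 CEACAM genes 3 were tested and 9 had no counts in any library, and 2 rose and 0 fell at each dose (median 2.17 at 400 µM and 1.83 at 200 µM). Ceacam16 averaged 4.31 CPM at 400 µM against 0.949 CPM in controls (2.17 ± 0.36, adjusted p = 7.6e-04), and Ceacam19 averaged 17.1 CPM against 2.78 CPM (2.59 ± 0.64, adjusted p = 0.00929). Ceacam1, the adhesion receptor of leukocytes and epithelia, did not pass (0.50 ± 0.19, adjusted p = 0.0672).

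The adjacent and overlapping genes of each of the 9 were followed on GENCODE positions, and those near Rassf6 and Hsd11b1 included genes that were also low in controls. Next to Six4 (chr12:73099609-73113456, GRCm38), Mnat1 rose by 0.77 ± 0.09 at 400 µM (adjusted p = 5.8e-05). Beside Rassf6 (chr5:90603076-90640657), the chemokine gene Cxcl5, 118703 bases away, had 0 counts in controls, 10 at 200 µM and 41 at 400 µM, and 5830473C10Rik, 5205 bases away, had 2, 11 and 24. Neither had enough counts for a test.

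Lamb3, which spans Hsd11b1 (chr1:193221634-193264075) on the opposite strand, had 27 counts in controls, 56 at 200 µM and 68 at 400 µM, and rose at 400 µM (1.76 ± 0.48, adjusted p = 0.0161) and not at 200 µM (1.32 ± 0.49, adjusted p = 0.0656). Between the doses edgeR's test called neither Lamb3 nor any other gene. Traf3ip3, on the Hsd11b1 strand, rose by 0.48 ± 0.13 at 400 µM (adjusted p = 0.0165). Prpf4, 550 bases from Rnf183 (chr4:62427540-62435252) on the opposite strand, averaged 36.4 CPM at 400 µM against 30.5 CPM in controls (0.26 ± 0.09, adjusted p = 0.0489), and Dnajb2, 1335 bases from Ptprn (chr1:75247027-75264502), was not called (0.27 ± 0.19, adjusted p = 0.332). Resp18, next to Ptprn and like it a dense core vesicle gene, had 0 counts in controls and at both doses. Around Hunk (chr16:90386013-90499553), Scaf4 rose by 0.38 ± 0.12 (adjusted p = 0.0341) and Mis18a fell by 0.66 ± 0.22 (adjusted p = 0.0400), 101510 and 219759 bases away. Cd177 beside Ceacam10 (chr7:24777206-24784657), and Cenpf and Smyd2 beside Ptpn14 (chr1:189728268-189876695), were not called at 400 µM (adjusted p = 0.424, 0.272 and 0.441), and the neighbours of Arnt2 (chr7:84246278-84410176) had at most 1 count.

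Exonic stretches of at least 100 bases at 95% identity or more were shared with other genes by Six4 (34 genes, the longest 147 bases with Gad2), Arnt2 (1 gene, 221 bases at 99.6%) and Ptprn (1 gene, 135 bases at 100%), and by none of the other 6. Reads from such stretches could be counted for either gene or for none.

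Markers of other cell types were followed because several of the 9 genes are better known from epithelium, brain or endocrine tissue. All 10 epithelial markers, Epcam and the keratins among them, were at 0 counts at 400 µM, and their summed level was at most 0.121 CPM in controls and 0.143 CPM at 200 µM. Of 10 neuronal and neuroendocrine markers, 7 were at 0 counts in controls, 8 at 200 µM and 8 at 400 µM. Tubb3, a neuronal tubulin, had 3 counts in controls, 12 at 200 µM and 15 at 400 µM, and of the 3 tested it was the 1 that rose at 400 µM (2.67 ± 0.90, adjusted p = 0.0426). The sum of the list, mostly Syp, was 4.35 to 7.14 CPM in controls, 5.41 to 6.30 CPM at 200 µM and 4.68 to 4.93 CPM at 400 µM. The 10 stromal markers summed to 1.83 to 3.03 CPM in controls, 20.6 to 30.8 CPM at 200 µM and 18.7 to 24.0 CPM at 400 µM, with 4, 3 and 3 of them at 0 counts. Acta2 made up almost all of this, with 92 counts in controls, 813 at 200 µM and 635 at 400 µM, while Col1a1 had 7, 6 and 1 counts. The erythroid and megakaryocyte list was also higher, at 129 to 245 CPM in controls, 425 to 479 CPM at 200 µM and 361 to 681 CPM at 400 µM, mostly through Pf4. Both tested genes of that list, Pf4 (1.31 ± 0.32, adjusted p = 0.00938) and Ppbp (4.99 ± 1.07, adjusted p = 0.00405), rose at 400 µM. Ppbp had 17 counts in controls, 108 at 200 µM and 361 at 400 µM, and was not called at 200 µM (adjusted p = 0.0766). Hbb-bs and Hba-a1 had at most 1 count in any group. The sum of the endothelial list was lower with heme-albumin, at 56.7 to 64.6 CPM in controls, 20.0 to 35.2 CPM at 200 µM and 29.6 to 47.5 CPM at 400 µM. It was mostly Vwf and Kdr, and of the 4 tested these 2 were called lower at each dose and 0 were called higher. Pecam1 went the other way, with 17 counts in controls, 30 at 200 µM and 35 at 400 µM, and was not called. The neutrophil sums overlapped, at 5.08 to 33.0 CPM in controls, 11.1 to 35.1 CPM at 200 µM and 17.9 to 55.3 CPM at 400 µM. Single genes went both ways, and 0 of the 5 tested were called at either dose. S100a8 had 143 counts in controls, 540 at 200 µM and 758 at 400 µM (adjusted p = 0.069 at 400 µM). Mpo had 7, 44 and 64 (adjusted p = 0.0547), and Elane, not tested, 1, 9 and 12. Ltf had 104, 25 and 27 counts, Ngp 158, 72 and 59, and S100a9 247, 103 and 155. Lymphoid markers summed to at most 0.847 CPM and adipocyte and hepatocyte markers to at most 0.143 CPM in any of these libraries. Cd2, the 1 lymphoid marker tested, had 2 counts in controls, 14 at 200 µM and 12 at 400 µM. It rose at 200 µM (2.83 ± 0.77, adjusted p = 0.0207) and at 400 µM (2.84 ± 0.79, adjusted p = 0.0211). The part of Tubb3, of Cd2 and of the stromal, megakaryocyte, endothelial and neutrophil lists in the levels of the 9 genes was not tested.

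Across the 15 libraries, the genes whose levels followed each of the 9 most closely were picked, up to 2 each. Likeness was Pearson's r on log2 CPM, with a prior count of 2 added before the log. This describes likeness over libraries that share their groups, and only 4 of the 18 picked stayed in place on a log2(CPM + 1) scale. Six4 was followed closely by Calr3, at r = 0.992. Hunk and Rnf183 were among each other's closest at r = 0.990, beside Sod1 (0.991) for Hunk and Smyd4 (0.990) for Rnf183. Hsd11b1 lay nearest to Pgd (0.984), of the pentose phosphate pathway, and Hmox1 (0.978), and Rassf6 to the glucuronosyltransferase genes Ugt1a7c (0.979) and Ugt1a6a (0.978), which share exons. Arnt2 lay nearest to Xylt1 (0.969) and Mettl7a1 (0.966), both of which also had higher means with IL-4 than in controls. Ceacam10 lay nearest to Serpinb9b (0.975), Ptprn to Ivd (0.966), and Ptpn14 to Tcf12 and Cop1 (0.957 each). Among the 9 themselves r ran from 0.623, between Arnt2 and Ptpn14, to 0.990.

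To place the 9 among all genes of this kind, genes with a control mean under 0.2 CPM were counted. There were 13668, and at least 1 CPM on average was reached by 76 at 400 µM, 50 at 200 µM, 96 with IL-4 and 101 with IFN-γ. Of these, 42 reached it at both heme-albumin doses, 37 of them protein coding, and 6 of the 9 genes were among them. Ptprn, Rnf183 and Ceacam10 were left out by the control limit. Arnt2 ranked behind 2 of the 42 at 400 µM, Esam and Il1f9. Of the 42, 8 also reached 1 CPM with IL-4, Arnt2 among them, 3 did so with IFN-γ, and 33 did so with neither cytokine, Six4, Hunk, Rassf6, Hsd11b1 and Ptpn14 among these. The limits matter: 22 genes remain with a control mean under 0.1 CPM, 18 with at least 2 CPM at both doses, and leaving out single libraries gave 28 to 46.

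**Figure D5:**
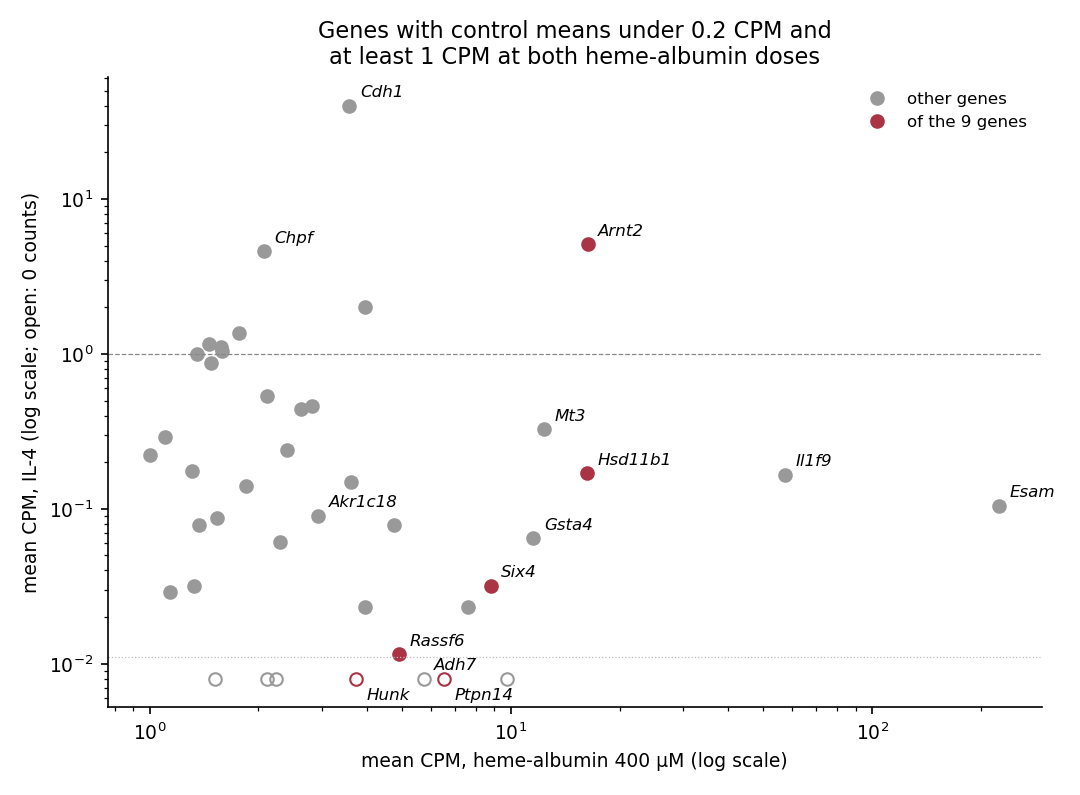
Mean CPM at 400 µM heme-albumin (horizontal, log axis) against mean CPM with IL-4 (vertical, log axis) for the 42 genes with a control mean under 0.2 CPM and at least 1 CPM at both heme-albumin doses, each point a gene, with a dashed line at 1 CPM with IL-4, open points at 0 IL-4 counts and the genes described here in red. Arnt2, at 16.3 and 5.12 CPM, is the only red point above the dashed line, and Cdh1 stands apart at 40.1 CPM with IL-4.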

How the data were processed

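RNA of 15 macrophage cultures in 5 groups of 3 was analysed from the raw count per gene that the authors deposited in 1 table. Per the submitters' processing notes, reads were handled with STAR 2.7.0e, SAMtools 1.9 and featureCounts on GRCm38.p5, while annotation and strand setting are not given in the sources used here; reads of overlapping genes may be shared. Of 25700 identifiers, 25664 were matched to GENCODE M21. The members and lists were chosen with earlier results of these data known.

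The test was that of edgeR 4.0.16 under R 4.3.3 (filterByExpr, TMM, quasi-likelihood, 1 fit over all 15 libraries with group means, Benjamini-Hochberg adjustment over all 11883 genes, threshold 0.05). The 9 genes were tested in 4 comparisons and described in heme-albumin against control. Errors of log2 fold changes are SE, and their 95% intervals use the model's degrees of freedom. A gene with 0 counts in a group has a lower bound against 3 counts over that group, and one with 1 to 3 counts has a ratio with a 95% counting interval. Both cover counting error only. The genes named were the 9, up to 4 of smallest p per list at 400 µM, up to 2 of like pattern, the neighbours, and markers. Start windows and their sequences are RefSeq's (GRCm38.p6), and shared stretches were found with BLAST 2.17.0.

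Column headers hold 3 dates, the same for a given replicate number in all groups, and on that ground replicate numbers were taken to pair the samples; the meaning of the dates is not stated. Deviations from group means correlated at a median of 0.144 over 30 same-number pairs (-0.168 to 0.474) and of -0.0688 over 60 other pairs, and 14 of 15 libraries were nearest to their own number. The procedure was tried on simulated data. The alternatives were DESeq2 1.42.0, DESeq2 size factors, upper-quartile factors, the replicate block, leaving out libraries, no filter, a filter at 5 CPM in 3 libraries, and a fit of only the 6 libraries compared. Values of some neighbouring genes and genes of like pattern are not reported here.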

Additional observations from a re-analysis of the deposited data

How the results depend on the processing

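Of the alternative fits of single fold changes of the 9 genes, 351 kept direction and side of the threshold, 16 lost the call, 4 gained it and 16 turned sign, all in differences that were not called. With the replicate number as a block, which uses the pairing by date, no call on the 9 genes changed, and the difference of 400 against 200 µM turned sign to 0.04 for Rnf183 (0.0378) and for Hsd11b1 (0.0384). For Rnf183 it was 0.00105 with DESeq2 size factors, 0.0104 with upper-quartile factors, 0.00147 with DESeq2 and -0.20 to 0.30 when single libraries were left out. Leaving out single libraries gave -0.14 to 0.28 for Hunk, -0.46 to 0.59 (without replicate 2 at 200 µM) for Hsd11b1 and -0.14 to 5.53 for Ptpn14, and leaving out both libraries that stood apart gave -0.0993 for Hunk and -0.125 for Ptpn14. Hsd11b1 with IL-4 against control ran from -0.0108 to 2.07 when single libraries were left out. For 400 against 200 µM, DESeq2 called 3 genes higher and 10 lower, and leaving out both libraries that stood apart gave 1 lower. With IL-4 against control, 2515 genes fell with only the 6 libraries compared and 2188 without the libraries that stood apart. Of the 9 genes, 1 to 2 rose when single libraries were left out, and 1 fell at 5 CPM in 3 libraries, a filter that Hunk did not pass. With only the 6 libraries 0 fell, because neither Rnf183 nor Hunk had enough counts there to be tested. With IFN-γ against control, of the 9 genes 1 fell at 5 CPM, 0 with only the 6 libraries, 1 without both libraries that stood apart and 1 to 2 when single libraries were left out. Hunk and Rassf6 were not tested at 5 CPM, and Rnf183, Hunk and Rassf6 were not tested with only the 6 libraries. At 200 µM against control, leaving out single libraries gave 1003 to 1396 genes higher (1029 without replicate 2 at 200 µM) and 650 (without that library) to 934 lower, only the 6 libraries gave 2152 lower and leaving out both that stood apart gave 1958. Relatives that fell at 400 µM were 5 to 8 when single libraries were left out, relatives that rose at 200 µM 8 to 14, and relatives that fell at 200 µM 4 to 10, 19 with only the 6 libraries and 17 without both that stood apart. Silent genes present at both doses were 22 under a control mean of 0.1 CPM, 18 at 2 CPM or more and 28 to 46 when single libraries were left out, and 4 genes of like pattern were kept on a log2(CPM + 1) scale. The stricter filter and smaller fits test fewer genes or fewer samples; for the other changes the cause was not tested. Depth limits all values of a gene in groups where it had under 10 counts.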

Other observations

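Among the other genes with a control mean under 0.2 CPM that reached 1 CPM at both heme-albumin doses, 2 averaged more at 400 µM than any of the 9. Esam, an endothelial and platelet adhesion molecule, averaged 0.195 CPM in controls, 205 ± 29.9 CPM at 200 µM and 225 ± 16.6 CPM at 400 µM. Il1f9, the cytokine IL-36γ, averaged 0.121 CPM in controls, 18.8 ± 23.8 CPM at 200 µM and 57.3 ± 62.7 CPM at 400 µM, with a spread as wide as its mean. Others of the 42 varied as widely between libraries. Mt3, a metallothionein, averaged 9.05 ± 10.7 CPM at 200 µM and 12.4 ± 11.3 CPM at 400 µM, and Gsta4, which conjugates lipid aldehydes to glutathione, 4.11 ± 4.35 and 11.6 ± 13.7 CPM. Adh7, an alcohol dehydrogenase, had 0 counts in controls and averaged 2.07 ± 2.43 CPM at 200 µM and 5.73 ± 6.77 CPM at 400 µM.

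A few of the 42 genes reached similar or higher levels with a cytokine. Cdh1, E-cadherin, averaged 40.1 CPM with IL-4 and 3.57 CPM at 400 µM heme-albumin, against 0.159 CPM in controls. Chpf, of chondroitin synthesis, averaged 4.59 CPM with IL-4, 2.15 CPM with IFN-γ and 2.07 CPM at 400 µM, against 0.0628 CPM in controls. Gata3, Pgf, Fgf1 and the serotonin transporter gene Slc6a4 stayed under 1 CPM with both cytokines and averaged 2.12, 2.82, 1.33 and 1.37 CPM at 400 µM. These genes were chosen on the levels given, so no test is attached to them.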
